A study of Drosophila melanogaster with 384 samples.

Results

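The nicotinic acetylcholine receptor (nAChR) of Drosophila melanogaster is built from subunits that are encoded by 10 genes, nAChRalpha1 to nAChRalpha7 and nAChRbeta1 to nAChRbeta3. They were chosen by their FlyBase symbols, a rule that uses no measured value, although earlier results of these data were known when the family was chosen. All 10 were found among 17097 FlyBase gene models, and among 39823 gene models in all, when unannotated gene models are included. RNA was sequenced from whole flies of 96 lines of the Drosophila Genetic Reference Panel (DGRP), a collection of inbred lines derived from wild-caught females. The flies were mated, were 3 to 5 days old and had developed on medium with 10% (v/v) ethanol, an exposure that males and females of every line shared. Flies from ethanol-free medium were not analysed here. Each line gave 2 libraries from pools of 30 males and 2 from pools of 25 females, 384 in total. Males and females of a line share their genotype, whereas the 2 libraries of a line and sex are the measure of error.

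These receptors are cation channels that open when acetylcholine, the main excitatory transmitter of the insect central nervous system, binds between neighbouring subunits. They belong to the Cys-loop family, together with the chloride channels opened by GABA, glutamate and histamine, and they are the targets of neonicotinoid and spinosyn insecticides. Alpha subunits carry a pair of adjacent cysteines at the binding site, which beta subunits lack. Most of them are known from neurons, which make up a small part of a whole fly.

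The genes lie on chromosome X (nAChRalpha3 and nAChRalpha7), on arm 2L (nAChRalpha5, nAChRalpha6 and nAChRbeta3), on 3L (nAChRalpha4 and nAChRbeta1) and on 3R (nAChRalpha1, nAChRalpha2 and nAChRbeta2). In the BDGP6 annotation their merged exons add up to between 1532 bp for nAChRbeta3 and 11027 bp for nAChRalpha1. Exons of nAChRbeta3 overlap those of Ets21C on the opposite strand, exons of nAChRalpha3 overlap those of CG1636, and nAChRalpha4 spans many transposable elements and shares exonic sequence with some of them and with an antisense non-coding gene. The libraries kept strand, but the strand setting of the counting is not given in the sources used here, so that reads of nAChRalpha4, nAChRalpha3 and nAChRbeta3 may include those of their neighbours.

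Total counts per library were between 5360410 and 17422329 (median 10284916). Levels are given as counts-per-million (CPM) after TMM scaling, as the mean of the 2 libraries of a line and sex. All 11 matched neuronal markers (elav, nSyb, Syt1, brp, Syx1A, Snap25, cac, unc-13, cpx, Syn and futsch) had counts in every library. In 19 lines at least 1 library carried transcripts of the other sex at more than 1% of that sex's median, up to 17.35% for the yolk protein transcripts in replicate 1 of line 176 males. Results that change without these lines are given with both values.

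Every receptor gene had counts in every library, and the genes differed several-fold in level. nAChRalpha5 was the highest in males by CPM, at 41.2 in the lowest line, 55.0 at the median and 127 in the highest line, against 10.9, 21.4 and 47.4 in females. nAChRalpha7, which serves the giant fibre escape pathway, was at 26.4, 48.0 and 64.4 CPM in males, against 7.60, 19.0 and 35.1 CPM in females. nAChRalpha4, known from sleep mutants, was at 37.6, 47.0 and 107 CPM in males, against 16.3, 53.3 and 117 CPM in females. The first 2 were thus higher in males, with overlapping ranges of lines, whereas the female range of nAChRalpha4 enclosed all of the male range. nAChRalpha1, a target of neonicotinoids, was at 23.7, 39.0 and 59.9 CPM in males, against 7.11, 13.9 and 40.3 CPM in females. nAChRalpha6, the target of spinosyns, was at 10.4, 22.4 and 36.3 CPM in males, against 4.45, 9.19 and 16.4 CPM in females. Both were higher in males, and 94 of the 96 male lines exceeded the highest female line for nAChRalpha6.

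The other 5 genes had male medians under those above. nAChRbeta1, which encodes a subunit of many receptor types, was at 7.76, 14.1 and 23.2 CPM in males, against 2.34, 5.96 and 11.5 CPM in females. nAChRalpha3 was at 9.23, 13.6 and 23.9 CPM in males, against 4.08, 7.16 and 16.2 CPM in females. nAChRbeta2 was at 6.40, 12.8 and 17.7 CPM in males, against 3.11, 5.71 and 12.6 CPM in females. These genes were again higher in males at the median, with fewer male lines above the highest female line for nAChRalpha3 (12) than for nAChRbeta2 (53) or nAChRbeta1 (87). nAChRalpha2 was at 7.50, 10.7 and 14.5 CPM in males, against 1.35, 4.50 and 10.7 CPM in females, and its lowest female library held 3 reads. nAChRbeta3, the most divergent subunit in sequence, was at 4.13, 10.4 and 20.9 CPM in males, against 3.70, 9.63 and 21.9 CPM in females. It was the only receptor gene whose lowest, median and highest lines were at nearly the same levels in both sexes.

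**Figure D1:**
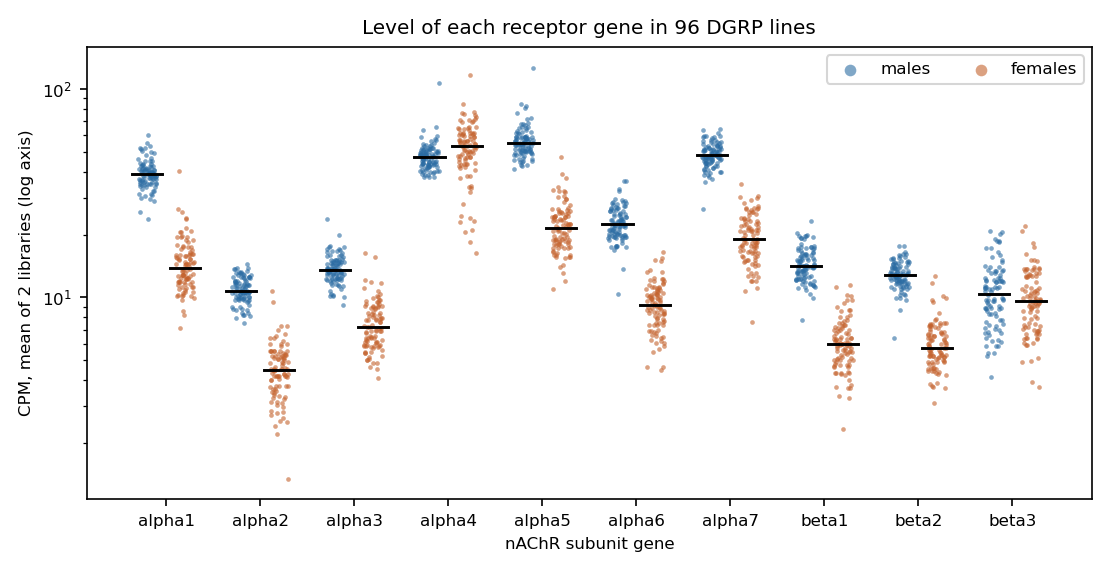
Level of each of the 10 receptor genes (x axis) in CPM on a log axis (y axis). Each point is the mean of 2 libraries of 1 of 96 DGRP lines, males on the left and females on the right of each pair, and black bars are medians. The male median is above the female median for all genes but nAChRalpha4 (47.0 CPM in males, 53.3 CPM in females), and the nAChRbeta3 medians are close (10.4 and 9.63 CPM).

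Levels per kilobase of exon compare genes only roughly, since the lengths are of all merged BDGP6 exons, whereas reads were aligned to BDGP5. Counts of nAChRalpha4, nAChRalpha3 and nAChRbeta3 may also include reads of their neighbours. On this scale nAChRalpha7 (8.30 CPM per kb at the median line) and nAChRalpha4 (7.77) led in males. They were followed by nAChRbeta3, nAChRalpha5, nAChRbeta1, nAChRalpha2, nAChRalpha1, nAChRbeta2, nAChRalpha6 and nAChRalpha3 (1.29). In females nAChRalpha4 (8.81 CPM per kb) and nAChRbeta3 (6.28) led, ahead of nAChRalpha7 (3.28), and nAChRalpha3 was again the lowest (0.682). In males the neighbours in this order differed within lines by more than the SD over lines at 3 places, which are nAChRalpha5 over nAChRbeta1, nAChRalpha2 over nAChRalpha1, and nAChRalpha6 over nAChRalpha3. In females they did so for nAChRbeta3 over nAChRalpha7, nAChRalpha7 over nAChRalpha5, and nAChRalpha6 over nAChRalpha3. All other neighbours differed on average by less than that spread, which is the spread over lines and not the error of the mean. Their order held in between 58 of 96 lines (nAChRbeta1 over nAChRalpha2 in females) and 83 of 96 (nAChRalpha2 over nAChRbeta2 in females). Of the summed receptor transcripts per kb of a line, nAChRalpha4 made up 15.6% in the median male line (12.7% to 28.7%) and 27.9% in the median female line (11.04% to 46.4%), and nAChRbeta3 14.1% in males and 21.6% in females.

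The sex difference was tested for 18062 gene models with DGRP line as a block. Of the 10 receptor genes, 8 were higher in males, 1 was lower and 1 was not called, where 57.8% of all gene models were called higher and 37.2% lower in males. The median over the receptor genes was 1.24 on the log2 scale (males over females), against 0.34 over all gene models tested. The largest difference was that of nAChRalpha1, which was 2.67-fold higher in males (log2 1.41 ± 0.04, limma SE, adjusted p = 5.37e-62, edgeR's quasi-likelihood test with Benjamini-Hochberg adjustment). Close to it were nAChRalpha5 (1.33), nAChRalpha7 (1.29), nAChRalpha6 (1.28), nAChRalpha2 (1.25), nAChRbeta1 (1.22) and nAChRbeta2 (1.09), and nAChRalpha3 had the smallest difference of the 8, 1.81-fold (0.86 ± 0.03). The 2 genes on chromosome X, nAChRalpha3 and nAChRalpha7, had the lowest and the third highest value of this group. In whole-fly RNA, fewer cells of a type and less RNA per cell cannot be told apart.

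The 8 differences held line by line. nAChRalpha1, nAChRalpha2, nAChRalpha5, nAChRalpha6, nAChRalpha7, nAChRbeta1 and nAChRbeta2 were higher in males in 96 of 96 lines, as were 22.4% of all gene models, and nAChRalpha3 in 95 of 96. nAChRalpha4 was higher in males in 35 lines and higher in females in 61, with a fitted log2 difference of −0.13 ± 0.05 (adjusted p = 0.00971, edgeR). This call was lost with DESeq2 size factors (0.02), with total counts (−0.01) and with either replicate alone, and among gene models with a mean of at least 50 counts the difference was called in the opposite direction (0.12). nAChRbeta3 differed by 0.06 ± 0.04 (adjusted p = 0.107, edgeR) and was higher in males in 67 lines. It was called higher in males with size factors (0.21, adjusted p = 1.9e-07) and without the lines that carried transcripts of the other sex (0.11, adjusted p = 0.0171), and was at −0.01 without a filter. DESeq2 size factors moved the median of all gene models by 0.15, and relative to that median nAChRalpha4 (−0.47) and nAChRbeta3 (−0.28) stayed where they were. Other filters changed the gene models behind the median and the place of both genes. Relative to the median, nAChRalpha4 and nAChRbeta3 were at −0.01 and 0.18 with the minimum of 50 counts. Without a filter they were at −0.32 and −0.12.

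Other genes of the cholinergic synapse were higher in males as well. Of 7 genes matched, mAChR-C had too few counts to be tested, and the other 6 were all higher in males, between 1.14 for mAChR-A, a muscarinic receptor, and 1.42 for mAChR-B. nAChRalpha3 (0.86) and nAChRbeta2 (1.09) were below all 6. ChAT, which makes acetylcholine, was at 21.8 CPM in the median male line and 9.02 CPM in the median female line (log2 1.24), ChT, the choline transporter, differed by 1.39 and Ace, the acetylcholinesterase, by 1.18. The other Cys-loop channels, 10 of 10 higher in males, ranged between 0.52 for pHCl-2, a pH-sensitive chloride channel, and 1.49 for GluClalpha, the glutamate-gated chloride channel. The 11 neuronal markers were all higher in males, between 0.25 for Syx1A and 1.58 for futsch with a median of 1.19. The 8 receptor genes called higher fell within the range of the neuronal markers, and nAChRalpha4 and nAChRbeta3 fell below it.

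**Figure D2:**
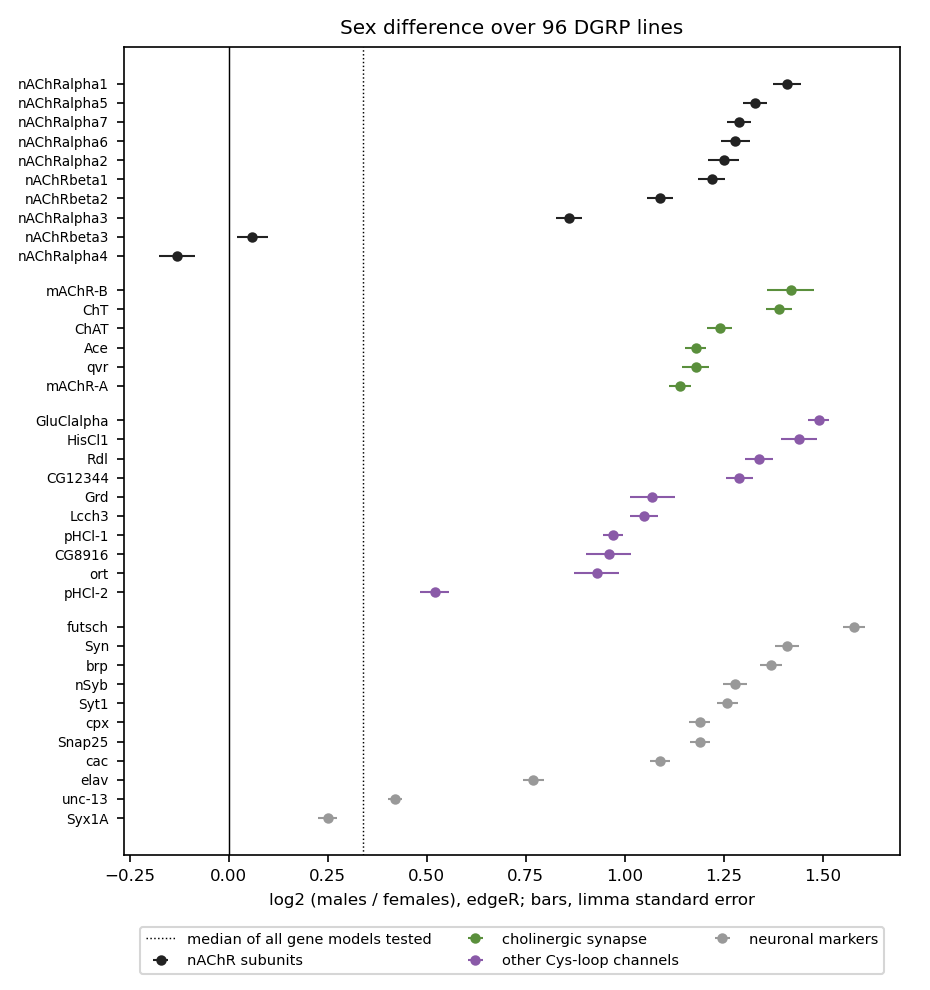
Sex difference of each gene as log2 of males over females (x axis) with its standard error from limma, for the receptor genes, the cholinergic synapse, other Cys-loop channels and the neuronal markers (rows), over 96 lines. The dotted line is the median of all gene models tested (0.34). nAChRalpha4 (−0.13) and nAChRbeta3 (0.06) are the only genes shown that lie left of that line besides Syx1A (0.25).

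Markers of other tissues differed with sex as well. The summed neuronal markers were at 2022 to 3199 CPM in males (median 2492) and 852.5 to 1838 CPM in females (median 1217), and the 6 glial markers at a median of 852.1 CPM in males and 478.2 CPM in females. All 6 glial and all 5 matched muscle markers were higher in males, with medians of 0.97 and 0.63. The 4 matched female germ line markers were lower in males, 130.0 to 276.4 CPM in males against 1033 to 2279 CPM in females, with osk and bcd at 0 in some male libraries. The part of these tissue shares in the receptor differences was not tested. Library sizes were also set to the mean relative level of the neuronal markers, so that a gene that follows this mean shows no difference. nAChRalpha1 (0.37), nAChRalpha5 (0.29), nAChRalpha7 (0.25), nAChRalpha6 (0.24), nAChRalpha2 (0.21) and nAChRbeta1 (0.18) were then higher in males. On that scale 25.2% of all gene models were called higher and 70.0% lower in males. nAChRbeta2 did not pass the threshold (0.04, adjusted p = 0.169, edgeR), and nAChRalpha3 (−0.19), nAChRbeta3 (−0.98) and nAChRalpha4 (−1.18) were lower. Of the 11 neuronal markers themselves, 8 were called higher and 3 lower in males on this scale. Their median was 0.14, against 0.19 for the receptor genes, so the 6 calls do not show an excess over a typical marker. The markers spanned −0.80 to 0.53, so the values of 8 receptor genes were no larger than the differences among the markers. nAChRalpha4 and nAChRbeta3 lay outside them. Cholinergic genes were between 0.10 for mAChR-A and 0.38 for mAChR-B, and other Cys-loop channels between −0.53 for pHCl-2 and 0.44 for GluClalpha.

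Variation among DGRP lines was tested within each sex against the difference between the 2 libraries of a line. The paper's models include a term for Wolbachia infection status, which the sample labels do not give and which was not fitted here. Its part in differences among lines cannot be told apart from that of genotype. In males all 10 receptor genes varied among lines, where 86.0% of 18944 gene models were called. In females 8 of 10 were called, where 78.6% of 14760 gene models were called, and the exceptions were nAChRalpha6 (F = 1.27, adjusted p = 0.139, edgeR) and nAChRbeta1 (F = 1.21, adjusted p = 0.190). nAChRalpha6 was called without the lines that carried transcripts of the other sex (adjusted p = 0.028). The median F of the receptor genes was 3.07 in males, against 3.10 over all gene models, and 1.81 in females, against 1.98. Among the related lists, 6 of 6 cholinergic genes varied in each sex, and of the other Cys-loop channels 9 of 10 in males and 8 of 10 in females. The SD of line means on the log2 scale was 0.50 for nAChRbeta3 in males and between 0.20 and 0.27 for the other 9 genes, against a median of 0.34 over all gene models. In females it was 0.50 for nAChRbeta3, 0.49 for nAChRalpha4 and between 0.36 and 0.45 for the other 8, against 0.44. With library sizes set to the neuronal markers, 9 of 10 were called in males (87.5% of all gene models) and 8 of 10 in females (78.0%). The exceptions were nAChRbeta2 in males (F = 1.30) and nAChRalpha2 (F = 1.15) and nAChRalpha6 (F = 1.09) in females.

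nAChRalpha4 in females had the highest F of the receptor genes (F = 11.2, adjusted p = 4.5e-27, edgeR), larger than that of 96.1% of gene models tested. With library sizes set to the neuronal markers its F was 3.38 (adjusted p = 9.12e-09), larger than that of 83.7% of gene models and close to that of nAChRalpha5 (3.35). Its line means had an SD of 0.49 on the log2 scale, the SD between the 2 libraries of a line was 0.20, and 85.2% of the variance lay between lines. The other receptor genes had between 4.26% (nAChRbeta1) and 42.6% (nAChRbeta3) of their variance between lines in females. In males nAChRalpha4 varied far less, with an SD of 0.21 and 52.9% of the variance between lines, among receptor genes between 25.2% for nAChRbeta1 and 63.8% for nAChRalpha7. In 14 lines the female level was under the lowest male line, and in 13 it was above the second highest male line. On the low side 8 female lines were under 0.5 of the female median, against 0 male lines under 0.5 of the male median. Line 176 was the lowest in females (18.2 and 14.4 CPM in its libraries) with 39.9 and 39.8 CPM in males, and line 370 followed (17.3 and 19.5 CPM) with 51.7 and 50.7 CPM in males. The female libraries of these lines were thus close to each other and far under the male libraries of the same genotype, of which replicate 1 of line 176 is the library with the most female transcripts.

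**Figure D3:**
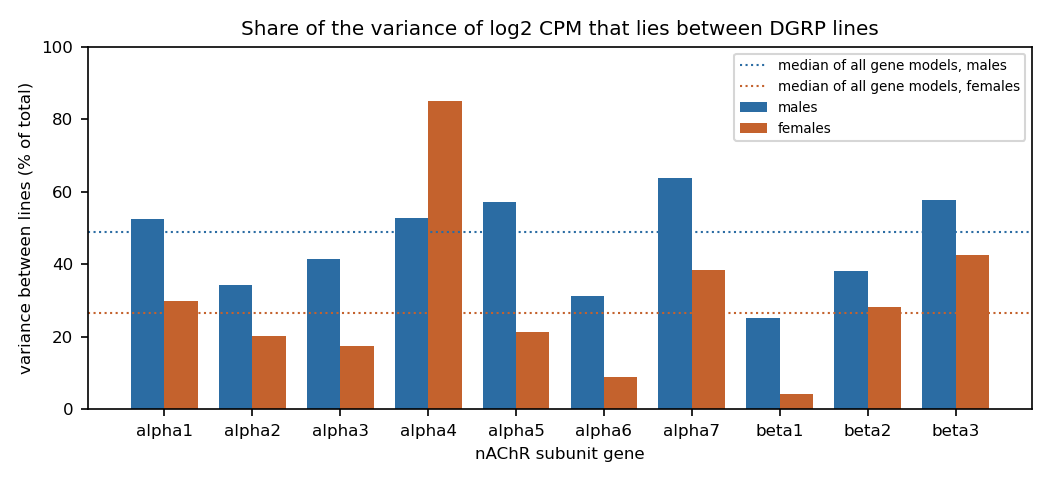
Percent of the variance of log2 CPM that lay between the 96 DGRP lines (y axis) for each receptor gene (x axis), males on the left and females on the right of each pair. Dotted lines are the medians of all gene models, 48.9% in males and 26.6% in females. nAChRalpha4 is at 52.9% in males and 85.2% in females, and every other receptor gene is higher in males.

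Single lines stood out, and those named here and above were chosen after their values were seen. Line 217 had the highest nAChRalpha4 level in males (110 and 104 CPM) and in females (98.9 and 135 CPM), where the next line was at 65.6 CPM in males and 84.4 CPM in females. Line 386 was the highest for nAChRalpha5 in males (102 and 151 CPM) and in females (48.2 and 46.6 CPM), against 84.4 and 38.9 CPM in the next line of each sex. Line 517 was the lowest for nAChRalpha7, with 25.2 and 27.6 CPM in males and 8.56 and 6.64 CPM in females. These 3 lines held the same place in both sexes, although replicate 1 of line 517 females carried accessory gland transcripts at 1.70% of the male median. Without line 217 the variance of nAChRalpha4 that lay between lines was 36.0% in males, in place of 52.9%, and 84.6% in females. Line 911 was the lowest in males for 4 genes, nAChRalpha1 (23.7 CPM), nAChRalpha6 (10.4), nAChRbeta1 (7.76) and nAChRbeta2 (6.40), and was at rank 60 to 76 of 96 in females for the same genes. Its male libraries were far apart for nAChRbeta2 (2.74 and 10.1 CPM) and close for nAChRalpha1 (23.0 and 24.4 CPM). The neuronal markers were low in these males as well. Their mean log2 CPM, centred over lines, was −0.278 in line 911, under that of every other line but 335 (−0.297). Both male libraries of line 911 were sequenced on flow cell D, as in few other lines. The part of either in the low receptor levels was not tested.

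The sex difference varied among lines for 3 of the 10 receptor genes, where 50.8% of 18062 gene models were called. For nAChRalpha4 the interaction exceeded that of 99.2% of gene models (F = 6.71, adjusted p = 1.57e-27, edgeR), and the difference between males and females of a line ranged between −0.78 and 1.47 on the log2 scale. nAChRalpha1 (F = 1.52, adjusted p = 0.0167) was higher in males in every line by between 0.42 and 2.21, and nAChRalpha7 (F = 1.50, adjusted p = 0.0205) by between 0.56 and 2.16. The call for nAChRalpha7 was lost without the lines that carried transcripts of the other sex (adjusted p = 0.0948). nAChRbeta3 varied among lines in both sexes but its interaction did not pass the threshold (F = 0.980, adjusted p = 0.629). None of the 11 neuronal markers was called in this edgeR test.

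Levels of a line in males and in females had a positive correlation for every receptor gene over the 96 lines. nAChRbeta3 had the highest correlation (r = 0.677, rho = 0.650, permutation p = 1e-05 for both, the smallest that 100000 permutations can give), above that of 90.4% of gene models, and r was 0.647 without the 2 lines farthest from the female median. Line 705 had the highest nAChRbeta3 level in males (24.3 and 17.5 CPM) and the second highest in females (24.5 and 16.9 CPM). Next in correlation came nAChRalpha7 (0.558), nAChRalpha5 (0.514) and nAChRalpha3 (0.487). Without line 517 r was 0.484 for nAChRalpha7, and without line 386 it was 0.430 for nAChRalpha5. By rho nAChRalpha5 (0.429) was below nAChRbeta2 (0.457) and nAChRalpha3 (0.454). The p-values of the 10 correlations between the sexes are unadjusted. nAChRalpha4 had the lowest (r = 0.293, permutation p = 0.0054, and rho = 0.148, permutation p = 0.151), and r was 0.182 without line 217. The median of all gene models was 0.259, so nAChRalpha4 was near the middle of the gene models and nAChRbeta3 near the top. After pool means were subtracted r was 0.657 for nAChRbeta3 and 0.304 for nAChRalpha4.

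**Figure D4:**
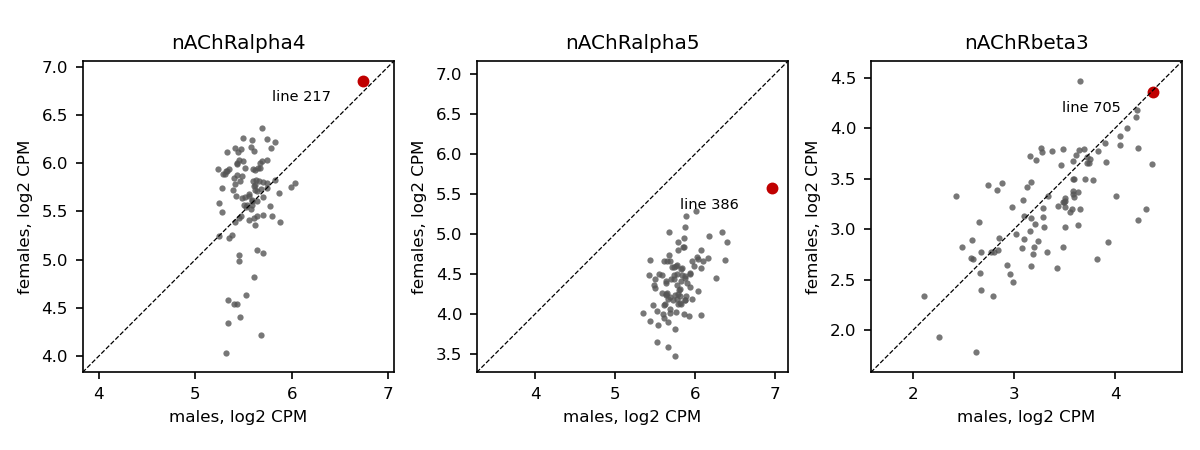
Line means of log2 CPM in males (x axis) and females (y axis) for nAChRalpha4, nAChRalpha5 and nAChRbeta3, 96 lines each, with equal levels on the dashed line and lines 217, 386 and 705 in red. For nAChRalpha4 the points form a vertical band (SD over lines 0.21 in males and 0.49 in females) with line 217 at the upper right, for nAChRalpha5 all lines lie below the dashed line, and for nAChRbeta3 the points follow it (r = 0.677).

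Covariation over lines with the neuronal markers was measured with an index, the mean over the 11 markers of log2 CPM centred on its mean. In males the index was positively correlated with 9 of 10 receptor genes at an adjusted permutation p under 0.05, where 15.6% of gene models had such a positive correlation. nAChRalpha6 was the highest (r = 0.751, rho = 0.709, adjusted p = 0.000201), the other 8 were between 0.366 for nAChRalpha2 and 0.659 for nAChRalpha1, and nAChRbeta3 was negatively correlated (r = −0.306, rho = −0.276, adjusted p = 0.0137). In females 9 of 10 were positively correlated, where 36.5% of gene models were, and the exception was nAChRalpha4 (r = 0.0619, rho = −0.0341, adjusted p = 0.623). nAChRalpha7 (r = 0.817) and nAChRalpha1 (r = 0.812) led in females, 8 genes were at 0.631 or more, and nAChRbeta3 was at 0.357. For nAChRalpha4 the correlation in males (r = 0.503) was at the level of the other subunits, and no test of the difference between the sexes was made. After pool means were subtracted, r in females was between 0.630 and 0.815 for the 8 genes, 0.390 for nAChRbeta3 and 0.0774 for nAChRalpha4. In the 45 lines whose female replicates were on flow cells A and B nAChRalpha4 had r = −0.0814 in females, and in the other 51 lines r = 0.185. The permutation tests were adjusted over all 18062 gene models in each sex.

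The index itself followed other tissues in females. It was correlated in males with the glial, muscle and female germ line indices at r = −0.0399, 0.0508 and −0.0495, and in females at r = 0.788, 0.592 and −0.623. Of the female germ line markers, osk (0.494 CPM in the median male line) and bcd (0.0982 CPM) were near 0 in males. The male values with that index therefore cannot show whether a germ line share is followed. With the male germ line index r was −0.151 in males and 0.120 in females. The receptor genes shared these patterns. With the female germ line index all 10 were between −0.137 and 0.178 in males. In females 9 of them had r between −0.618 (nAChRalpha2) and −0.381 (nAChRalpha5), and nAChRalpha4 had 0.0861. With the male germ line index all 10 were between −0.186 (nAChRalpha6) and 0.168 (nAChRalpha4) in males. How much of the covariation in females follows the germ line share was not tested.

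**Figure D5:**
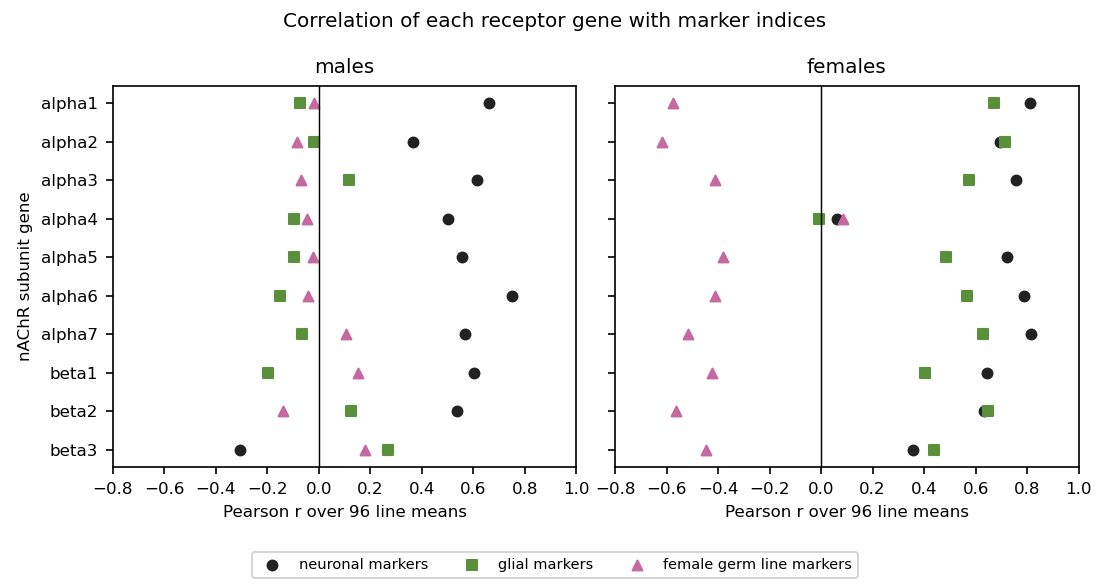
Pearson correlation (x axis) of each receptor gene (rows) with the neuronal, glial and female germ line marker indices over 96 line means, males in the left panel and females in the right. In males only the neuronal index (circles) is away from 0 for most genes. The female germ line index in males includes osk and bcd, whose male levels are near 0. In females neuronal and glial values are positive and germ line values negative for all but nAChRalpha4, which is near 0 for all 3 indices.

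Receptor genes also varied together over lines. Over their 45 pairs the median r was 0.329 in males and 0.460 in females, and these values are descriptions without a test. In males the highest pair was nAChRalpha1 with nAChRalpha6 (r = 0.645, rho = 0.560), and in females nAChRalpha1 with nAChRalpha7 (r = 0.713, rho = 0.744). The 9 pairs with nAChRbeta3 were all negative in males, down to −0.303 with nAChRalpha2. In females the pairs with nAChRalpha4 were between −0.0976 and 0.128. The 3 neighbouring genes on 3R, nAChRalpha1, nAChRalpha2 and nAChRbeta2, had r between 0.219 and 0.468 in males and between 0.497 and 0.648 in females, within the range of the other pairs. After regression on the neuronal index the median over pairs was 0.0886 in males and −0.00737 in females.

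The transcripts most like the receptor genes were ranked over lines, as a description. Among 10522 FlyBase gene models with a mean of at least 50 counts in males, fne, an RNA-binding protein of neurons (r = 0.747), side-VI (0.720), Rim, an active zone protein (0.717), onecut, a neuronal transcription factor (0.713), and Appl, the amyloid precursor-like protein (0.707) had the highest correlation with the mean of the receptor genes. In females these were Syn, synapsin (0.881), scrt, a neuronal transcription factor (0.872), Appl (0.868), Syt1, synaptotagmin (0.866), and nwk (0.864), among 8682. Of these, Syn and Syt1 are on the list of neuronal markers used here. Appl was among the 5 of both sexes.

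nAChRalpha4 and nAChRbeta3, which departed from the rest, were compared in the same way after their values were seen. For nAChRbeta3, Ppn, papilin of the extracellular matrix, was the closest transcript in males (r = 0.772) and in females (r = 0.743), followed by Karl (0.768) and lectin-24Db (0.761) in males and by NimB4 (0.685) and NtR (0.677) in females. Ppn was thus the closest in both sexes. None of these 5 is among the neuronal markers, but that list holds only 11 genes and does not tell which cells express the 5. Ets21C, whose exons overlap nAChRbeta3, had r = −0.104 with it in males (rho = −0.140, permutation p = 0.316 for r) and r = 0.0968 in females (rho = 0.0972, permutation p = 0.349 for r). For nAChRalpha4 in females no transcript reached 0.4, and the closest were CG30440 (0.382), mav (0.366) and Naa20A (0.333). In males CG1909 was the closest (r = 0.604, rho = 0.675).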

How the data were processed

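Whole flies of 96 DGRP lines reared on ethanol medium gave 384 libraries (2 replicates per line and sex). The authors trimmed reads with cutadapt 1.6, removed ribosomal, microbial and repeat reads with BWA 0.7.10, aligned the remainder to BDGP5 with STAR 2.4.0e, and deposited raw HTSeq counts per gene model. Reads that match several places were not counted, which can lower genes that hold repeats. The strand setting is not given in the sources used here.

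Gene models marked ribosomal (162) or mitochondrial (35) and the summary lines of the counting program, which held 2.85% (no feature), 1.39% (ambiguous) and 25.8% (not unique) of alignments, were left out. edgeR 4.0.16 was applied to gene models that averaged 5 or more counts in the libraries used (R 4.3.3; quasi-likelihood F-test, TMM, Benjamini-Hochberg adjustment over all tested, threshold 0.05). For sex, the replicates of a line were summed and line was the block. Line effects were tested in males and females separately, and the interaction of both factors in all 384 libraries. Standard errors are from limma 3.58.1. For the comparison with neurons, library sizes were set to the mean relative level of the 11 of 12 listed neuronal markers that were matched. VAChT, ric3, para, wupA, nos and vas were not matched and not used. Correlations were computed over line means of log2 CPM (prior count 2) with 100000 two-sided permutations (NumPy 2.4.6, SciPy 1.17.1). Fits were tested on simulated data. Nothing says that the replicates came from separate cultures, so p-values measure the spread between these samples.

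All 10 receptor genes are named. From each list the highest and lowest genes and those needed for its count are named, together with the 5 transcripts closest to the mean of the receptor genes in each sex. Members, lists and tests were chosen with earlier results of these data known. Names, chromosome arms and exon lengths are from BDGP6, of which no positions are given. Alternatives were other scalings, filters and tests (including DESeq2 1.42.0), either replicate alone, flow cell or pool as covariate, and, added after seeing the data, leaving out the 19 lines with transcripts of the other sex.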

Additional observations from a re-analysis of the deposited data

Results flagged for a closer look

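The sex difference varied among DGRP lines by the interaction test for 3 receptor genes. For nAChRalpha4 F was 6.71 (adjusted p = 1.57e-27, edgeR), with log2 differences of males over females between −0.78 and 1.47 and females of 8 lines under 0.5 of the female median. For nAChRalpha1 F was 1.52 (adjusted p = 0.0167), and for nAChRalpha7 F was 1.50 (adjusted p = 0.0205), or 1.37 without the lines that carried transcripts of the other sex (adjusted p = 0.0948).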

How the results depend on the processing

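The number of receptor genes called higher in males was between 8 and 10 under all 11 alternatives, and the number lower in males was 0, in place of 1, with DESeq2 size factors, the DESeq2 Wald test, total counts, a minimum of 50 counts and with either replicate left out (0 and 0). The gene concerned was nAChRalpha4, whose log2 difference was 0.02 with size factors and with the Wald test and 0.12 with the minimum of 50 counts, against −0.13. nAChRbeta3, which was not called, was called higher in males with 1 replicate left out (0.13 and 0.15), with total counts (0.18), with size factors and the Wald test (0.21) and with the minimum of 50 counts (0.32). The cause was not tested. Relative to neuronal markers 6 or 7 genes were higher and 3 lower under all 8 alternatives, and only nAChRbeta2 changed its call. The counts of genes that varied among lines were between 9 and 10 in males and between 7 and 9 in females, and the interaction was called for 2 to 4 genes.

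The main tests did not pair males with females of a line by replicate number. Deviations of the same replicate number were weakly correlated between the sexes at the median line (0.0792, between −0.141 and 0.427, over 0.1 in 40 of 96 lines). In some lines, replicates with the same number were on the same flow cell in both sexes. With the replicate block in limma nAChRbeta3 was called higher in males (0.12) and nAChRalpha6 varied among lines in females (F = 1.43). A replicate cannot be left out of the tests of lines or of the interaction, since no error would remain.

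The median correlation between receptor genes was 0.0886 in males and −0.00737 in females after regression on the neuronal index, and in females 0.638 for the 45 lines with female replicates on flow cells A and B and 0.360 for the other lines. The median correlation with the neuronal index in females was 0.794 and 0.631 in the same sets and between 0.672 and 0.790 with 1 replicate, against 0.708. Low female counts limit nAChRalpha2, nAChRbeta1 and nAChRbeta2, whose median libraries held 44.0, 57.0 and 58.5 reads.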
